A study of Mus musculus with 3 samples.

Results

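Collagens and the stromal matrix proteins laid down with them were followed in macrophages from mice with 4T1 tumors, where carcinoma cells placed in the mammary fat pad of BALB/c mice spread to the lung. The set held every gene with a collagen chain symbol (Col, a number, a, a number), together with 15 named genes of fibronectin, proteoglycans, matricellular proteins, elastic fibers and crosslinking enzymes. Of the 18193 genes read from the arrays, 55 belonged to it, which were 42 collagen chain genes and 13 of the 15 named genes. The other 2, *Fbn1* and *Loxl2*, were not analysed here. Above the background level of 5.3 on at least 1 array were 32 of the 55, which were 24 collagen chains and 8 other matrix genes.

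RNA of 3 groups was hybridised to Affymetrix mouse arrays, with 1 array per group. mTAMs were macrophages sorted for CD11b and F4/80 from the metastatic lung of tumor-bearing mice, and pTAMs were sorted in the same way from the matched primary tumor, both taken 5 weeks after 4T1 cells had been inoculated. Some experiments of the study used TAMs gated as Ly6C-negative, and whether the cells on the arrays were is not stated. In this 4T1 model the mice were 5 to 6 weeks old at inoculation. BMDM were macrophages grown in culture from bone marrow of healthy mice and sorted for the same proteins, so they differed from both kinds of TAMs in tumor bearing as well as in culture, and these cannot be told apart. The sources used here do not say how many mice gave each sample. With 1 array per group there was no error across animals and no test, so each difference below compares arrays. As the only measured spread, the log2 difference of different probe sets for the same gene had an SD of 0.44 for mTAMs against BMDM, 0.35 for pTAMs against BMDM and 0.26 for mTAMs against pTAMs.

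Collagens are built from chains that wind into a triple helix. Fibrillar collagens form the cables of connective tissue, network collagens such as type IV form the sheet of basement membranes, and fibril-associated collagens decorate the cables. Fibronectin, small proteoglycans and matricellular proteins bind these fibers and the cells between them. Fibroblasts are the main source of most fibrillar collagen in lung and tumor, whereas fibronectin and versican are also known products of monocytes and macrophages.

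Most matrix genes were below background or differed by less than 2-fold, and of the others more were higher in TAMs than in BMDM than were lower. Counts of 2-fold differences use a measured log2 difference of at least 1, with values below background taken as read. Among the 31 members above background on at least 1 of the compared arrays, 13 exceeded BMDM by at least 2-fold in mTAMs, where 11.5% of 11945 genes passed that fold, and 2 were at least 2-fold lower, where 14.4% of all genes did. Of all genes, 1368 were higher and 1715 lower, and after cyclic loess normalization of the arrays 1585 were higher and 1199 lower, with the members still at 13 and 2. In pTAMs against BMDM, 13 of 31 were higher by such a difference (8.78% of 11859 genes) and 1 was lower (7.5%). With values below background raised to 5.3, 12 of the 13 passed, since *Bgn* then differed by 1.75-fold. Between the TAMs, 5 of 32 exceeded pTAMs by at least 2-fold in mTAMs (5.36% of 11801 genes) and 3 were at least 2-fold lower (2.58%). Members that lay at background in the lower sample entered this count only because the other sample was high, so the count was also set against the whole set. Over all 55 members the median log2 difference was 0.06 for mTAMs against BMDM, 0.07 for pTAMs against BMDM and 0.00 for mTAMs against pTAMs. Over all 18193 genes it was 0.00 in each comparison. Among the members above background alone, the medians were 0.67, 0.39 and 0.03 in the same order of comparisons, next to -0.11, -0.05 and -0.06 for all genes above background. Over the whole set the medians thus lay near 0, and 16 genes carried the differences of at least 2-fold. Both comparisons with BMDM use the same BMDM array.

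**Figure D1:**
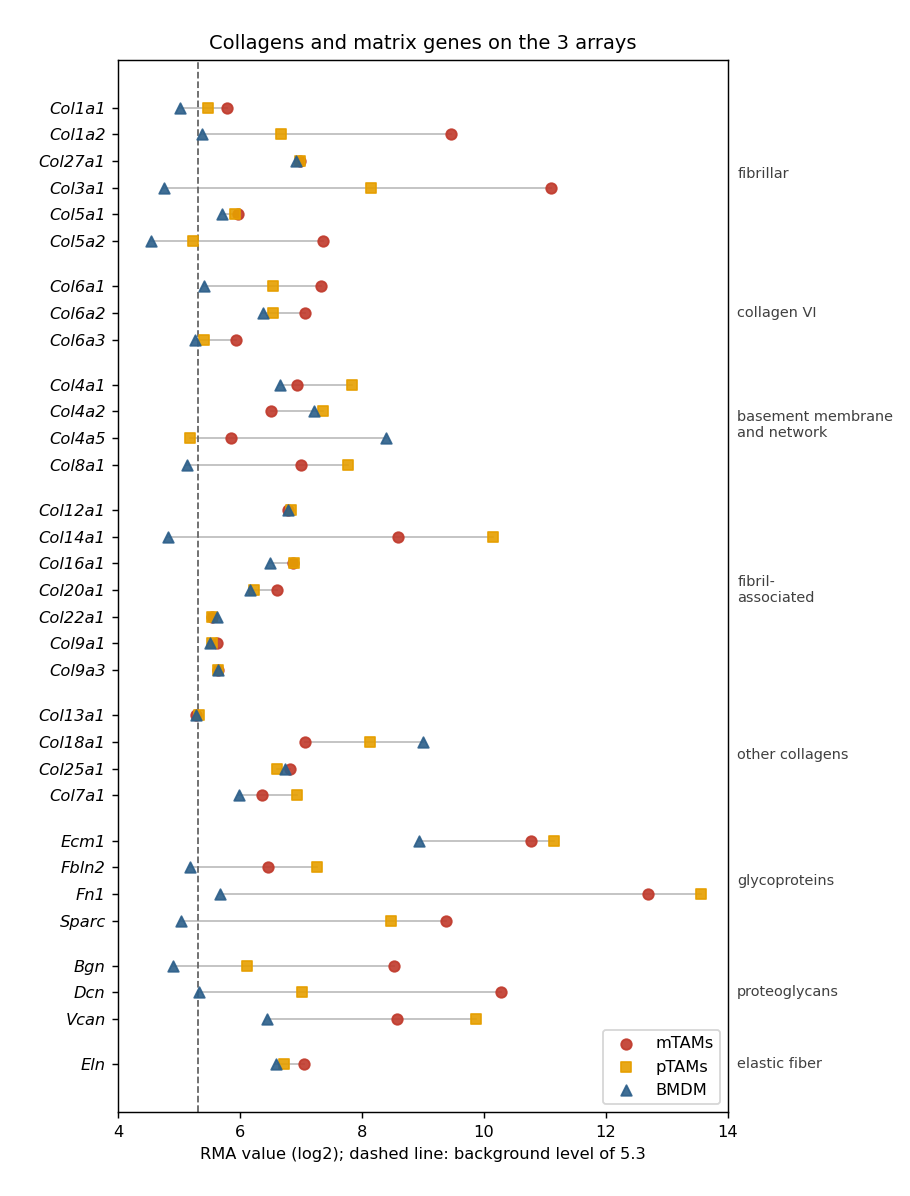
RMA values (horizontal axis, log2) of the 32 collagen and matrix genes above background (vertical axis, grouped by the kind of protein) on the arrays of mTAMs, pTAMs and BMDM, 1 point per array, with the background level of 5.3 as a dashed line. *Col3a1*, *Col1a2*, *Col5a2*, *Dcn* and *Bgn* are highest in mTAMs, *Fn1*, *Col14a1* and *Vcan* are highest in pTAMs, and *Col4a5* and *Col18a1* are highest in BMDM.

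The array on which a gene was highest split the members into 3 groups. Of the 32 members above background, 16 ranged over at least 2-fold on the 3 arrays. Highest in mTAMs were 7 of them (*Bgn*, *Col1a2*, *Col3a1*, *Col5a2*, *Col6a1*, *Dcn* and *Sparc*), or 21.9% of the 32, where 9.37% of 12025 genes had this pattern. Highest in pTAMs were another 7 (*Col14a1*, *Col4a1*, *Col8a1*, *Ecm1*, *Fbln2*, *Fn1* and *Vcan*), likewise 21.9%, where 5.21% of all genes did. Highest in BMDM were *Col18a1* and *Col4a5*, which made 6.25%, where 15% of all genes did.

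Among the fibrillar collagens, the chains of types I, III and V were highest in mTAMs. *Col3a1*, which encodes the only chain of collagen III, had log2 values of 11.09 in mTAMs, 8.15 in pTAMs and 4.75 in BMDM. It was thus at background in BMDM and strong in both TAMs. Its level exceeded that of BMDM by at least 55.3-fold in mTAMs and at least 7.21-fold in pTAMs, and mTAMs exceeded pTAMs by 7.67-fold. Its second probe set gave 7.23 in mTAMs, 4.29 in pTAMs and 3.58 in BMDM, with the same log2 difference of 2.94 between mTAMs and pTAMs, although only mTAMs lay above background there. *Col1a2*, the gene of the second chain of collagen I, had values of 9.46 in mTAMs, 6.67 in pTAMs and 5.38 in BMDM. This level exceeded that of BMDM by 16.9-fold in mTAMs and 2.45-fold in pTAMs, and mTAMs exceeded pTAMs by 6.92-fold. Its other probe set above background gave smaller log2 differences of 2.89, 1.06 and 1.83 in the same order of comparisons. *Col5a2*, a chain of collagen V, which sets the width of collagen I fibrils, was above background in mTAMs alone, with 7.35 in mTAMs, 5.23 in pTAMs and 4.53 in BMDM. In mTAMs it exceeded both of the others by at least 4.14-fold, while its other probe set (4.81 in mTAMs, 4.37 in pTAMs and 4.25 in BMDM) stayed below background.

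The partner chains of collagens I and V were in the same order, but within 2-fold by the probe sets used. *Col1a1*, which encodes the major chain of collagen I, had values of 5.79 in mTAMs, 5.47 in pTAMs and 5.02 in BMDM, and the second probe set stayed below background on all 3 arrays. Its log2 difference between mTAMs and pTAMs was 0.32, against 2.79 for *Col1a2*. *Col5a1*, the partner of *Col5a2* in collagen V, had values of 5.97 in mTAMs, 5.91 in pTAMs and 5.70 in BMDM. The other probe set above background, however, gave 5.99 in mTAMs, 5.83 in pTAMs and 3.13 in BMDM, so its comparison with BMDM depended on the probe set. *Col27a1*, a fibrillar chain of cartilage, lay between 6.92 and 6.98 on all arrays. The remaining fibrillar chain genes, *Col2a1*, *Col5a3*, *Col11a1*, *Col11a2* and *Col24a1*, were never above background.

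The promoters of *Col3a1* and *Col1a2* are shown because these were the fibrillar genes with the largest differences between mTAMs and pTAMs. Each runs from 250 bases before to 50 bases after the transcription start in RefSeq (GRCm38.p6). The window of *Col3a1* is chr1:45311288-45311587 on the plus strand and that of *Col1a2* is chr6:4505368-4505667 on the plus strand. Capitals mark matches, on either strand, to a set of 3 promoter motifs. The first is the TATA box, searched as TATAAA. The next is the CCAAT box, searched by the letters of its name. The last is the GC box, a site class known from many promoters without a TATA box, searched as GGGCGG.
Col3a1: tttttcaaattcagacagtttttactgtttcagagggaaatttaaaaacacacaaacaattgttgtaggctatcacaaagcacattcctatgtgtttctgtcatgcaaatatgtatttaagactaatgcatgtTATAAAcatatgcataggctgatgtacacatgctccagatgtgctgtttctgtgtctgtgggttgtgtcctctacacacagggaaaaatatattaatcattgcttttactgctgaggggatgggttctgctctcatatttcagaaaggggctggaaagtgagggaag
Col1a2: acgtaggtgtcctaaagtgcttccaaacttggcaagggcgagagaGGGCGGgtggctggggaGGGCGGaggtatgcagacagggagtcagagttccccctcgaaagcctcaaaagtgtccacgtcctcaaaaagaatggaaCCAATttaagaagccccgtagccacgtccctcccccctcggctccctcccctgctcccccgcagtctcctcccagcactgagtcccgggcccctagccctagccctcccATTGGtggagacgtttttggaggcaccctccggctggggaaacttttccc
*Col3a1* held 1 TATA box, beginning at position -117 from the start, no CpG and 37.7% G and C. *Col1a2* held a CCAAT box at position -109 and another, on the opposite strand, at position 1, with 2 GC boxes at positions -205 and -188, 13 CpG and 61.0% G and C. Of 32851 promoter windows of this length, 13.6% held a TATA box, 37.4% a CCAAT box and 35.7% a GC box on either strand. Of the 32 members above background, 23 had a promoter in that table, of which 3 held a TATA box, 9 a CCAAT box and 16 a GC box. A match is a run of letters and was not tested as a binding site.

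Fibroblast markers outside the set were measured alongside, since sorted cells can bring RNA of other cells. Of 20 such markers, all on the array, 12 were above background in mTAMs, 13 in pTAMs and 8 in BMDM. Their linear signals summed to 7939 in mTAMs, 6368 in pTAMs and 7705 in BMDM. *Gsn*, the highest of them on each array, weighed most in these sums, with 11.85 in mTAMs, 11.89 in pTAMs and 12.53 in BMDM. The next highest in BMDM was *Pdpn*, so the sums do not follow the other markers. Above BMDM by a measured difference of 2-fold were 5 of 12 in mTAMs (41.7%, where 11.5% of all genes were). In pTAMs 5 of 13 were (38.5%, where 8.78% of all genes were). With values raised to background these were 4 and 3. In mTAMs 1 was lower (8.33%, where 14.4% of all genes were), and in pTAMs 0 were lower, where 7.5% were. Between the TAMs, 1 of 13 exceeded pTAMs by at least 2-fold in mTAMs (7.69%, where 5.36% of all genes did). *Mgp*, a matrix inhibitor of calcification, had values of 10.40 in mTAMs, 9.76 in pTAMs and 3.23 in BMDM. *Pi16*, a marker of adventitial fibroblasts, had 10.74 in mTAMs, 8.52 in pTAMs and 5.71 in BMDM, and was the marker that differed between the TAMs. *Pdgfra*, the receptor gene that defines many fibroblasts, had 7.82 in mTAMs, 7.20 in pTAMs and 4.94 in BMDM, whereas *Pdpn* went the other way, with 8.42 in mTAMs, 9.30 in pTAMs and 10.26 in BMDM. The defining markers *Thy1*, *Dpt*, *Prrx1* and *Tcf21* were below background on all 3 arrays by the probe sets used. On bulk RNA, more cells of a type and more RNA per cell cannot be told apart, and the part of these cells in the matrix differences was not tested.

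**Figure D2:**
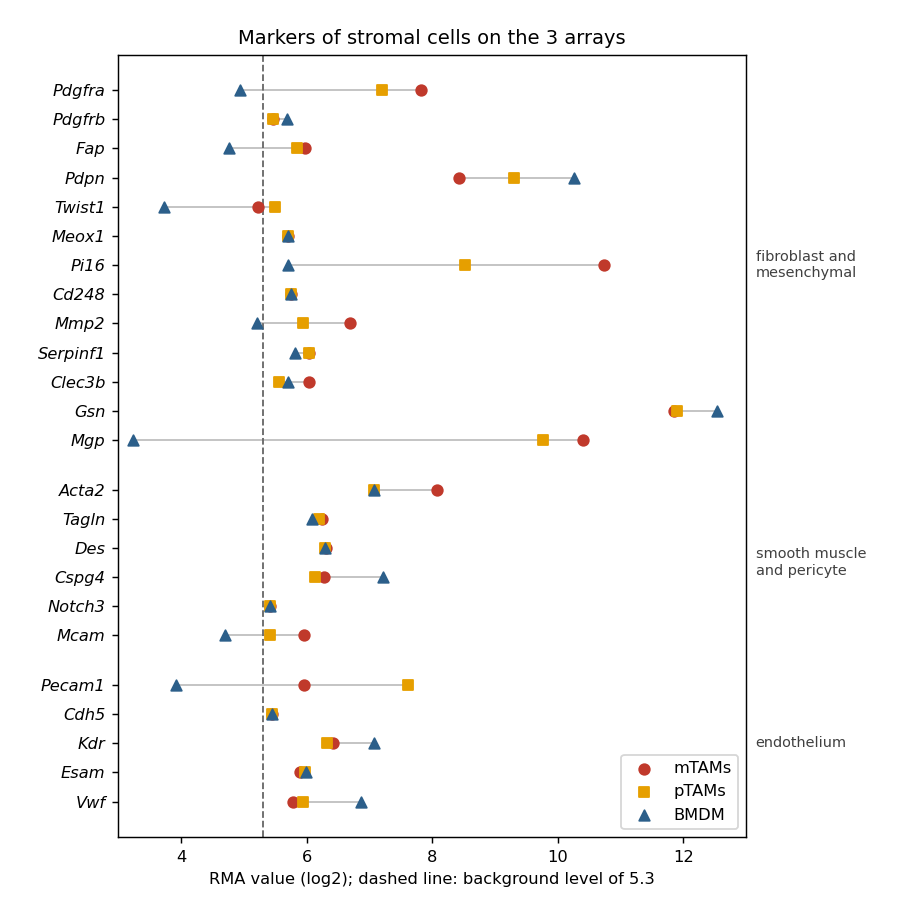
RMA values (horizontal axis, log2) of the markers of fibroblasts, smooth muscle with pericytes, and endothelium that were above background on at least 1 array (vertical axis), 1 point per array, with the background level of 5.3 as a dashed line. *Pi16*, *Mgp* and *Pdgfra* are higher in mTAMs and pTAMs than in BMDM, and *Pi16* is higher in mTAMs (10.74) than in pTAMs (8.52). *Pdpn*, *Gsn*, *Cspg4* and *Vwf* are lower in mTAMs and pTAMs than in BMDM. *Pecam1* is highest in pTAMs (7.61, with 5.96 in mTAMs and 3.92 in BMDM), and *Mmp2* and *Acta2* are highest in mTAMs.

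Collagen VI, a microfibril of beads around cells, followed the fibrillar chains with smaller differences. *Col6a1* had values of 7.33 in mTAMs, 6.54 in pTAMs and 5.40 in BMDM, and so exceeded BMDM by 3.81-fold in mTAMs and 2.20-fold in pTAMs. *Col6a2* had 7.06 in mTAMs, 6.54 in pTAMs and 6.38 in BMDM, and *Col6a3* had 5.93 in mTAMs, 5.41 in pTAMs and 5.26 in BMDM. All 3 chains were thus in the same order, mTAMs above pTAMs above BMDM, with log2 differences between mTAMs and pTAMs of 0.79, 0.52 and 0.52, each within 2-fold. The probe set used for *Col6a2* is one that its name marks as shared, and the other probe set gave 7.50 in mTAMs, 6.19 in pTAMs and 5.91 in BMDM, a log2 difference of 1.31 between mTAMs and pTAMs. *Col6a4* and *Col6a5* were never above background.

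Basement membrane collagens went in other directions. *Col4a1*, one of the chains of the collagen IV found in all basement membranes, had values of 6.93 in mTAMs, 7.83 in pTAMs and 6.65 in BMDM, and exceeded BMDM by 2.27-fold in pTAMs (a log2 difference of 1.18, against 0.67 from its second probe set). *Col4a2*, the gene of its partner chain, had 6.51 in mTAMs, 7.36 in pTAMs and 7.21 in BMDM, all within 2-fold of each other. Between mTAMs and pTAMs the chains differed alike, with log2 differences of -0.90 for *Col4a1* and -0.85 for *Col4a2*. Their differences from BMDM were not alike, with 0.28 and -0.70 in mTAMs and 1.18 and 0.15 in pTAMs.

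*Col4a5*, a chain of the specialised collagen IV of kidney and other tissues, was the member that fell most. It had values of 5.85 in mTAMs, 5.18 in pTAMs and 8.39 in BMDM, 5.82-fold lower in mTAMs and at least 8.51-fold lower in pTAMs than in BMDM. In order of the log2 difference it stood at place 97 from the lowest of 11945 genes in mTAMs against BMDM and at place 36 of 11859 in pTAMs against BMDM. The second probe set gave log2 differences of -1.79 in mTAMs and -2.11 in pTAMs. *Col4a6*, the neighbor gene of *Col4a5*, was never above background, and neither were *Col4a3* and *Col4a4*.

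Collagen IV genes lie head to head, and the promoters of the *Col4a1*-*Col4a2* and *Col4a5*-*Col4a6* neighbors are shown because their genes did not keep to the same order over the arrays. The starts of *Col4a1* and *Col4a2* lie 21 bases apart on opposite strands, so that their windows share 78 bases, whereas those of *Col4a5* and *Col4a6* lie 1343 bases apart and their windows share none. Windows and capitals are as above, from RefSeq on GRCm38.p6. They are chr8:11312777-11313076 on the minus strand for *Col4a1*, chr8:11312555-11312854 on the plus strand for *Col4a2*, chrX:141475169-141475468 on the plus strand for *Col4a5* and chrX:141474027-141474326 on the minus strand for *Col4a6*.
Col4a1: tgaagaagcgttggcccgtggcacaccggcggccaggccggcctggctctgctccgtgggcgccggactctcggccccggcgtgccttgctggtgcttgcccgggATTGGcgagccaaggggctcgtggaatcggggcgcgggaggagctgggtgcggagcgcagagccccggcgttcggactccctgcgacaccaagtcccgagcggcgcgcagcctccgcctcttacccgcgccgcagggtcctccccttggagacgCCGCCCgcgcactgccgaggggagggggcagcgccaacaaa
Col4a2: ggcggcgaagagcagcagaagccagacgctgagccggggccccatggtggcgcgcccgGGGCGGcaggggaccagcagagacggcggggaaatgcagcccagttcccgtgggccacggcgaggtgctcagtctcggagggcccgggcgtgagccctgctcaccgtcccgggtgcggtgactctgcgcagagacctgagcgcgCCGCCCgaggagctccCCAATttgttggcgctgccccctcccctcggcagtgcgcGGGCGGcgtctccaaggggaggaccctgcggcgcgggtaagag
Col4a5: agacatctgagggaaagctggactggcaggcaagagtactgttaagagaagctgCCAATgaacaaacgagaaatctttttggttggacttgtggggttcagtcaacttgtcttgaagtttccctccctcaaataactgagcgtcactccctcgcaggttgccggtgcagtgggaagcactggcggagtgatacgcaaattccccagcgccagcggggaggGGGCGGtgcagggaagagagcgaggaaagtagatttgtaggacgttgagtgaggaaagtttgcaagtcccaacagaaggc
Col4a6: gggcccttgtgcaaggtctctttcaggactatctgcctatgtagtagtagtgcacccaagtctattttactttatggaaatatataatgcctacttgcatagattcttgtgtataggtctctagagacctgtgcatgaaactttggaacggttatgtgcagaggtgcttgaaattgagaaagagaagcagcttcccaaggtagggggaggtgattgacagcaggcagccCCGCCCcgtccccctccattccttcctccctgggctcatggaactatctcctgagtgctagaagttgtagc
The *Col4a1* and *Col4a2* windows held 74.0% and 73.7% G and C with 37 and 33 CpG. Those of *Col4a5* and *Col4a6* held 52.7% and 48.3% with 11 and 3 CpG. None of these 4 windows held a TATA box by this search. A CCAAT box was found in those of *Col4a1*, *Col4a2* and *Col4a5*, and a GC box in all 4.

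Of the other network collagens, *Col8a1*, a short chain collagen of vessel walls and wounds, had values of 6.99 in mTAMs, 7.77 in pTAMs and 5.13 in BMDM. This level exceeded that of BMDM by at least 3.23-fold in mTAMs and at least 5.54-fold in pTAMs, and its second probe set above background gave log2 differences of 1.54 and 2.30. *Col8a2* and *Col10a1* were never above background. *Col18a1*, which encodes the basement membrane collagen from which endostatin is cut, was high in BMDM, with 7.06 in mTAMs, 8.13 in pTAMs and 8.99 in BMDM. It was 3.81-fold lower in mTAMs than in BMDM and 2.10-fold lower in mTAMs than in pTAMs, and within 2-fold between pTAMs and BMDM. Its second probe set gave -1.84 and -1.39 for the differences of mTAMs. *Col7a1*, the collagen of anchoring fibrils, had 6.36 in mTAMs, 6.93 in pTAMs and 5.98 in BMDM, all within 2-fold.

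*Col14a1* stood apart from the other fibril-associated collagens. It encodes a collagen that lies on the surface of collagen I fibrils, and had values of 8.59 in mTAMs, 10.15 in pTAMs and 4.82 in BMDM. This level exceeded that of BMDM by at least 9.78-fold in mTAMs and at least 28.8-fold in pTAMs, and was 2.95-fold lower in mTAMs than in pTAMs. In pTAMs against BMDM this was place 49 from the highest of 11859 genes. Of its other probe sets, one gave 6.46 in mTAMs, 7.68 in pTAMs and 4.86 in BMDM, and the weakest gave 4.94 in mTAMs, 5.44 in pTAMs and 4.00 in BMDM, so that all 3 had the same order. The remaining fibril-associated collagens hardly moved. *Col12a1* (6.78 to 6.83), *Col16a1* (6.49 to 6.88), *Col20a1* (6.16 to 6.60), *Col22a1* (5.53 to 5.62), *Col9a1* (5.50 to 5.62) and *Col9a3* (5.64 on every array) stayed within 2-fold over the arrays. The transmembrane collagens *Col25a1* (6.60 to 6.81) and *Col13a1* (5.27 to 5.32) did so too. *Col13a1* was the member just inside the background level, and *Postn*, at 5.19 in pTAMs, the one just outside. *Col9a2*, *Col15a1*, *Col17a1*, *Col19a1*, *Col23a1* and *Col26a1* were never above background.

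The glycoproteins above background were higher in both TAMs than in BMDM. *Fn1*, the gene of fibronectin, which links collagen to integrins, had values of 12.69 in mTAMs, 13.56 in pTAMs and 5.67 in BMDM. This level exceeded that of BMDM by 130-fold in mTAMs and 237-fold in pTAMs, place 28 from the highest of 11945 genes and place 4 of 11859. The log2 difference between mTAMs and pTAMs was -0.87, within 2-fold, but -1.81 on the second probe set (8.49 in mTAMs, 10.30 in pTAMs and 3.43 in BMDM). *Ecm1*, a secreted glycoprotein that binds matrix proteins, had 10.77 in mTAMs, 11.15 in pTAMs and 8.94 in BMDM. This was an excess over BMDM of 3.56-fold in mTAMs and 4.63-fold in pTAMs. *Fbln2*, which bridges fibronectin and elastic fibers, had 6.45 in mTAMs, 7.26 in pTAMs and 5.17 in BMDM. The excess over BMDM was at least 2.22-fold in mTAMs and at least 3.89-fold in pTAMs, and its other probe set was flat at 2.58. These genes were all somewhat higher in pTAMs than in mTAMs, within 2-fold.

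*Sparc* was the glycoprotein gene with the opposite order of the TAMs. It encodes a collagen-binding protein of bone and stroma, and had values of 9.38 in mTAMs, 8.48 in pTAMs and 5.03 in BMDM. The excess over BMDM was at least 16.9-fold in mTAMs and at least 9.06-fold in pTAMs. Its second probe set gave 8.46 in mTAMs, 7.54 in pTAMs and 3.82 in BMDM. The weakest showed nothing of this, with 5.72 in mTAMs, 5.52 in pTAMs and 5.72 in BMDM. *Tnc* and *Postn*, the tenascin C and periostin genes of wounds and tumor stroma, were never above background.

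The proteoglycans had the largest difference between mTAMs and pTAMs among the members. *Dcn*, which encodes decorin, a small proteoglycan on collagen fibrils, had values of 10.28 in mTAMs, 7.02 in pTAMs and 5.32 in BMDM. The level in mTAMs exceeded that in pTAMs by 9.58-fold, place 34 from the highest of 11801 genes. Against BMDM, whose value was just above background, the excess was 31.1-fold in mTAMs and 3.25-fold in pTAMs. Its other probe set was flat at 4.46. *Bgn*, which encodes the related biglycan, had 8.52 in mTAMs, 6.11 in pTAMs and 4.90 in BMDM, so that mTAMs exceeded pTAMs by 5.31-fold. Its second probe set gave 7.63 in mTAMs, 5.52 in pTAMs and 5.44 in BMDM, and a shared one gave 5.54 in mTAMs, 4.95 in pTAMs and 4.51 in BMDM. So *Bgn* was highest in mTAMs on all 3, while its difference between pTAMs and BMDM was 1.21 on the probe set used and 0.08 on the second.

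*Vcan* had the reverse order of the TAMs. It encodes versican, a large hyaluronan-binding proteoglycan, and had values of 8.57 in mTAMs, 9.86 in pTAMs and 6.44 in BMDM. It was 2.45-fold lower in mTAMs than in pTAMs, and exceeded BMDM by 4.38-fold in mTAMs and 10.7-fold in pTAMs. Of its other probe sets, 2 were above background, with log2 differences between mTAMs and pTAMs of -1.56 and -1.26. *Lum*, the gene of lumican, which is related to decorin and biglycan, was never above background.

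Genes of elastic fibers and of crosslinking did not differ by 2-fold on the probe sets used. *Eln*, the elastin gene, had values of 7.05 in mTAMs, 6.71 in pTAMs and 6.59 in BMDM. *Lox* and *Loxl1*, which encode enzymes that crosslink collagen and elastin, were below background on the probe sets used. The other probe set of *Loxl1* gave 5.57 in mTAMs and 3.83 in both pTAMs and BMDM, a measured log2 difference of 1.74.

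Set side by side, mTAMs and pTAMs differed by at least 2-fold in the level of 8 of 32 members. Higher in mTAMs were *Dcn*, *Col3a1*, *Col1a2*, *Bgn* and *Col5a2*, by log2 differences of 3.26 to 2.12. Lower in mTAMs were *Col14a1* (-1.56), *Vcan* (-1.29) and *Col18a1* (-1.07), and none of these 3 was lower by 3-fold. With the probe sets of a gene averaged, *Vcan* no longer passed 2-fold and *Fn1* did. Of the other probe sets of these 8 genes, 9 were above background, all 9 had the same direction and 7 also passed 2-fold. For the comparisons with BMDM, 12 of 13 such probe sets had the same direction in mTAMs and 10 of 11 in pTAMs, and the exception in both was the weakest probe set of *Sparc*.

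**Figure D3:**
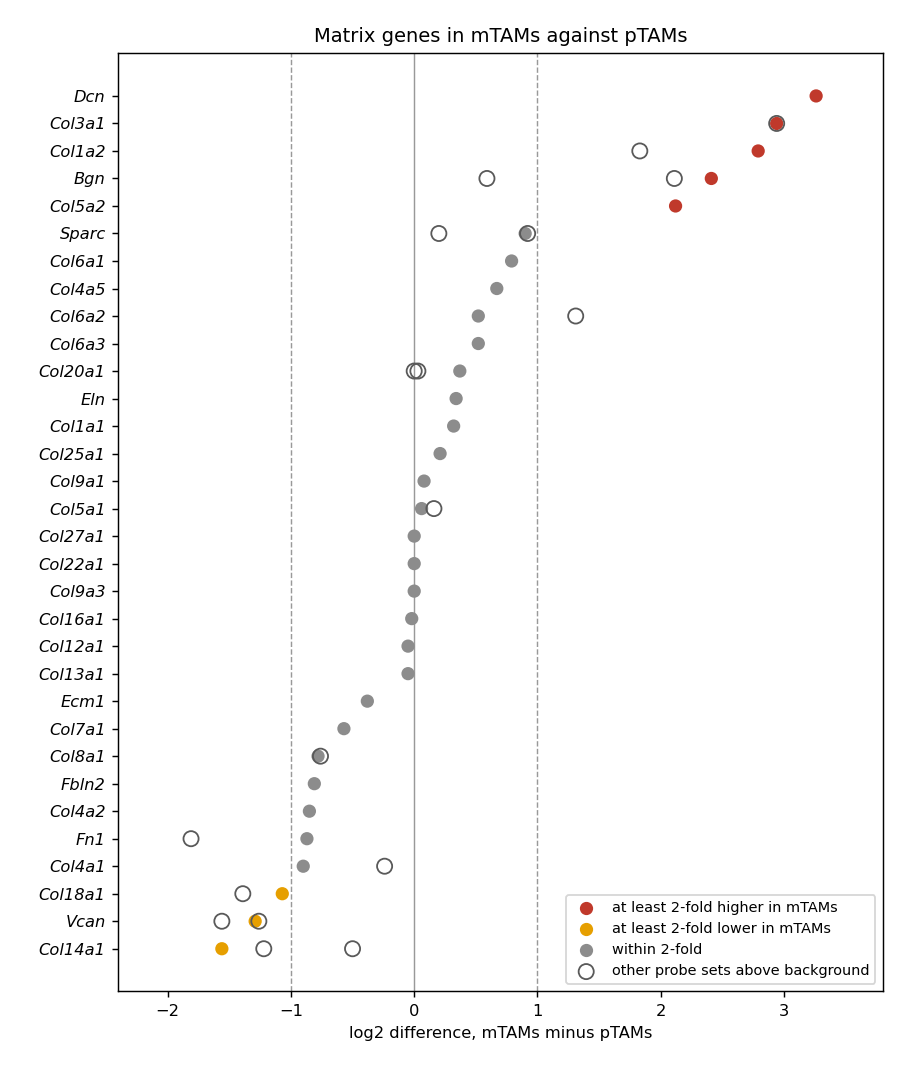
Log2 difference between mTAMs and pTAMs (horizontal axis, mTAMs minus pTAMs) of the 32 collagen and matrix genes above background (vertical axis, in order of the difference), with a filled point for the probe set used and open circles for other probe sets above background on at least 1 of these arrays. Dashed lines mark 2-fold. *Dcn* (3.26), *Col3a1* (2.94), *Col1a2* (2.79), *Bgn* (2.41) and *Col5a2* (2.12) lie to the right of them, and *Col14a1* (-1.56), *Vcan* (-1.29) and *Col18a1* (-1.07) to the left.

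The count above BMDM is given for collagen chains and other matrix genes apart, over those above background and over all on the array. Of 23 collagen chains above background, 6 exceeded BMDM by at least 2-fold in mTAMs (26.1%, where 11.5% of all genes did). Lower in mTAMs were 2 (8.7%, where 14.4% of all genes were). In pTAMs 6 of 23 were higher (26.1%, where 8.78% of all genes were) and 1 was lower (4.35%, where 7.5% were). Over all 42 collagen chains on the array these 6 stood beside a median log2 difference of 0.01 in mTAMs and 0.05 in pTAMs. Of 8 other matrix genes, 7 did so in mTAMs (87.5%) and 7 in pTAMs, or 6 in pTAMs with values raised to background, and 0 were lower. Over all 13 other matrix genes on the array the median was 1.28 in mTAMs and 1.21 in pTAMs. Genes entered these counts of 23 and 8 by being high on a single array or more, so the shares are a description. Only *Eln* of these 8 was within 2-fold in both.

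**Figure D4:**
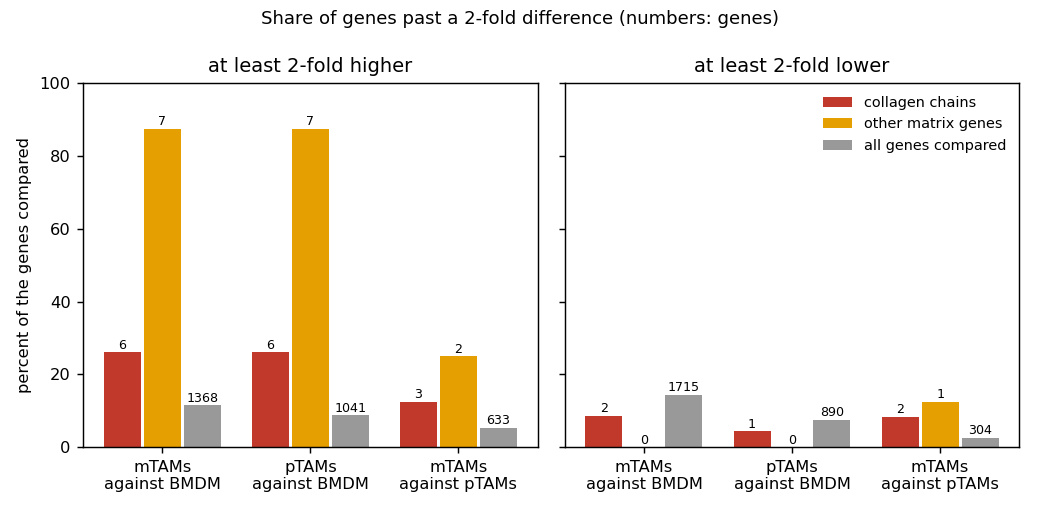
Percent of genes at least 2-fold higher (left) or lower (right) in each comparison (horizontal axis), by measured log2 difference, for the collagen chains, the other matrix genes and all genes above background on at least 1 of the compared arrays, with the number of genes over each bar. Of the other matrix genes, 87.5% were higher in mTAMs than in BMDM, next to 26.1% of the collagen chains and 11.5% of all genes.

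Genes that act on collagen were read from a list of 25, of which 22 were on the array and 16 above background. Above BMDM by a measured difference of 2-fold were 4 of 16 in mTAMs (25%, where 11.5% of all genes were), or 3 with values raised to background, and 6 in pTAMs (37.5%, where 8.78% were). Below BMDM were 3 in mTAMs (18.8%, where 14.4% of all genes were) and 2 in pTAMs (12.5%, where 7.5% were). The leading genes were those of extracellular processing and of the collagen chaperone. *Pcolce*, which enhances cleavage of the procollagen end, had 8.53 in mTAMs, 8.49 in pTAMs and 3.97 in BMDM, and its relative *Pcolce2* had 5.78 in mTAMs, 6.66 in pTAMs and 3.92 in BMDM. *Serpinh1*, the chaperone HSP47, had 8.42 in mTAMs, 8.07 in pTAMs and 6.05 in BMDM, and *Plod2*, a lysyl hydroxylase, had 6.56 in mTAMs, 7.05 in pTAMs and 5.23 in BMDM. Between the TAMs, none of the 16 exceeded pTAMs by 2-fold in mTAMs, where 5.36% of all genes did. Lower was 1 (6.25%, where 2.58% of all genes were). Of the receptors for collagen and fibronectin, 13 were above background. In mTAMs 0 of these were at least 2-fold higher than BMDM, where 11.5% of all genes were. Lower was 1 (7.69%, where 14.4% of all genes were), *Itgav*, an integrin subunit (10.15 in mTAMs, 10.71 in pTAMs and 11.24 in BMDM). In pTAMs 2 were higher (15.4%, where 8.78% of all genes were) and 0 lower. The same 2 were at least 2-fold lower in mTAMs than in pTAMs (15.4%, where 2.58% of all genes were). These were *Sdc4*, a syndecan (10.40 in mTAMs, 11.70 in pTAMs and 9.91 in BMDM), and *Itga1*, a subunit of a collagen receptor (5.61 in mTAMs, 6.83 in pTAMs and 5.10 in BMDM).

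Other matrix genes, outside the set, had their own leading members. Of 14 laminin, nidogen and basement membrane proteoglycan genes on the array, 8 were above background. In mTAMs 3 of these exceeded BMDM by a measured difference of 2-fold (37.5%, where 11.5% of all genes did). With values raised to background 2 did. Lower in mTAMs was 1 (12.5%, where 14.4% of all genes were). In pTAMs 2 were higher (25%, where 8.78% of all genes were) and 0 lower. *Lamb1*, a laminin chain, led with 8.72 in mTAMs, 9.21 in pTAMs and 4.58 in BMDM. Of 15 further elastic fiber and microfibril genes, 9 were above background. In each of the TAMs 3 were at least 2-fold higher than in BMDM (33.3%, where 11.5% of all genes were in mTAMs and 8.78% in pTAMs). These were the latent TGF-beta binding protein genes *Ltbp1* (6.93 in mTAMs, 7.75 in pTAMs and 4.01 in BMDM), *Ltbp2* (6.46 in mTAMs, 7.32 in pTAMs and 4.52 in BMDM) and *Ltbp3* (8.44 in mTAMs, 9.63 in pTAMs and 7.26 in BMDM). *Loxl3* was the 1 gene of this list that was lower in mTAMs, by 2.07-fold (11.1%, where 14.4% of all genes were lower). For pTAMs this count was 0, where 7.5% of all genes were lower. Of 8 other small leucine-rich proteoglycan genes, 2 were above background and both stayed within 2-fold. Of 15 other matricellular genes, 7 were above background on at least 1 array. By measured differences 3 of 5 exceeded BMDM by 2-fold in mTAMs (60%, where 11.5% of all genes did). In pTAMs 5 of 6 did (83.3%, where 8.78% of all genes did). With values raised to background 2 did so in each. *Thbs1*, the thrombospondin 1 gene, led with 10.57 in mTAMs, 12.01 in pTAMs and 5.51 in BMDM, followed by *Tgfbi*, with 13.22 in mTAMs, 13.31 in pTAMs and 10.69 in BMDM. None of the genes in these 6 lists exceeded pTAMs by 2-fold in mTAMs, where 5.36% of all genes did. By a measured difference of 2-fold 6 were lower, where 2.58% of all genes were. These were *P4ha2* (6.25% of 16), *Sdc4* and *Itga1* (15.4% of 13), *Ltbp3* (11.1% of 9), and *Thbs1* and *Sparcl1* (28.6% of 7). Of the 8 basement membrane genes and the 2 small leucine-rich proteoglycan genes above background, none was lower. With values raised to background *Sparcl1* no longer passed.

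The sort was checked against lists of cell type markers. All 10 macrophage markers were above background on all 3 arrays. *Itgam*, the gene of CD11b, had values of 11.61 in mTAMs, 11.90 in pTAMs and 10.46 in BMDM, and *Adgre1*, the gene of F4/80, had 10.06 in mTAMs and 11.93 in BMDM, with a log2 difference of 0.06 between mTAMs and pTAMs. None of the 10 exceeded pTAMs by 2-fold in mTAMs, and 2 were lower (20%, where 2.58% of all genes were). These were *Fcgr1* (10.58 in mTAMs and 12.03 in pTAMs) and *Aif1* (10.62 in mTAMs and 11.70 in pTAMs). Markers of other cells were present too. Of 10 neutrophil markers on the array, 10 were above background in mTAMs, 10 in pTAMs and 8 in BMDM. Their linear signals summed to 76275 in mTAMs, 33163 in pTAMs and 1703 in BMDM. In mTAMs 7 of the 10 exceeded pTAMs by at least 2-fold (70%, where 5.36% of all genes did). Of 12 markers of epithelium or carcinoma, 9 were above background in mTAMs, 10 in pTAMs and 4 in BMDM. The sums were 2531 for mTAMs, 4672 for pTAMs and 438 for BMDM. Of the 10 above background on either TAM array, 3 were at least 2-fold lower in mTAMs than in pTAMs (30%, where 2.58% of all genes were). Of 10 markers of smooth muscle and pericytes, 6 were above background in mTAMs, 6 in pTAMs and 5 in BMDM, with sums of 663 in mTAMs, 498 in pTAMs and 555 in BMDM. *Acta2*, the smooth muscle actin gene, had 8.08 in mTAMs and 7.08 in both pTAMs and BMDM. *Cspg4* went the other way against BMDM, with 6.27 in mTAMs, 6.14 in pTAMs and 7.22 in BMDM. Of 10 endothelial markers, 5 were above background in mTAMs, 5 in pTAMs and 4 in BMDM, with sums of 418 in mTAMs, 569 in pTAMs and 485 in BMDM. *Pecam1* (5.96 in mTAMs, 7.61 in pTAMs and 3.92 in BMDM) was at least 2-fold lower in mTAMs than in pTAMs. It was 1 of 5 (20%, where 2.58% of all genes were). Against BMDM it was higher in both TAMs by measured differences, and in pTAMs alone with values raised to background. *Vwf* was lower in mTAMs than in BMDM (5.78 and 6.87), 1 of 5 (20%, where 14.4% of all genes were). Of 8 megakaryocyte and platelet markers, 7 were above background in mTAMs, 7 in pTAMs and 6 in BMDM, with sums of 2272 in mTAMs, 6298 in pTAMs and 5205 in BMDM. Most of each sum came from *Pf4*, with 10.62 in mTAMs, 12.40 in pTAMs and 12.19 in BMDM. Between the TAMs, neutrophil markers were thus higher on the array where *Dcn* and the fibrillar collagens were higher, and carcinoma markers on the array where *Vcan* and *Col14a1* were. Their part in these differences was not tested.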

How the data were processed

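Total RNA of mTAMs, pTAMs and BMDM had been hybridised to 1 Affymetrix array each. Per the study's methods, tumor and lung were digested with collagenase and hyaluronidase and separated on Percoll before the sort. The authors deposited log2 values made with RMA, which corrects background, equalises the distributions of the arrays and summarises each probe set. The sources used here give no version. Rounded to 2 decimals, the 45037 values of an array had medians of 5.43 in mTAMs, 5.43 in pTAMs and 5.36 in BMDM, and 21.4% did not vary over the 3 arrays. The number of arrays limits the precision.

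The platform annotation gave a single symbol to 34945 probe sets, several to 932 and none to 9160. Only the first were used, and 1 probe set stood for each gene, the one whose mean was highest (the members had 114 probe sets in all). All 55 members were found in RefSeq's gene table of GRCm38.p6, which served for their chromosomes. Promoter windows came from a separate set, which held 23 of the 32 members above background. Background was set at 5.3, a level given with the choice of the members, and was set beside sensory receptor probe sets. The 95th percentile of 81 olfactory, vomeronasal and bitter taste receptor probe sets was 5.3. With 3 sweet and umami receptors this percentile was 5.56, above which 31 members lay. Comparisons used genes above background on at least 1 of the compared arrays. Where the lower value did not pass background, the fold was taken against 5.3 and is a lower bound. The BMDM values of *Dcn* (5.32), *Col1a2* (5.38) and *Col6a1* (5.40) passed 5.3 but not 5.56, so their folds against BMDM rest on values near background. A difference was called at a log2 difference of at least 1, and no test was run. The members and gene lists were chosen with earlier results of these data known. Members past 2-fold were named with all their values, other members by range, and of each further list at most 4 genes. Some markers and list genes were added beside them after their values were seen. Alternatives were 3 normalizations, 2 choices of probe set, 2 filters, values raised to background and a 3-fold call. The calls were checked on simulated arrays. Python 3.11.15, pandas 2.3.3, numpy 2.4.6, matplotlib 3.10.9, R 4.3.3 and limma 3.58.1 were used.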

Additional observations from a re-analysis of the deposited data

How the results depend on the processing

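The counts of members past 2-fold stayed within 1.5 times under median centering, cyclic loess and quantile normalization, averaged probe sets, leaving out shared probe sets, no filter, a background level 1 log2 unit higher and values raised to background. At a 3-fold call, 0 members were lower in mTAMs than in pTAMs, in place of 3. The median of the members against BMDM moved most. In mTAMs it was 1.12 with averaged probe sets, 0.06 with no filter and 1.28 with the higher background level, in place of 0.67. In pTAMs it was 0.85 with averaged probe sets and 1.16 with the higher background level, in place of 0.39, with 0.07 for no filter and 0.21 for values raised to background. With averaged probe sets, 9 members exceeded BMDM by at least 2-fold in pTAMs, in place of 13. *Bgn*, *Col1a2*, *Col4a1*, *Dcn* and *Fbln2* were lost and *Col5a1* was gained. In mTAMs against BMDM the count stayed at 13, but *Fbln2* and *Vcan* were lost and *Col5a1* and *Col6a2* gained, and of the members lower in mTAMs than in pTAMs *Vcan* was lost and *Fn1* gained. The cause was not tested. Of 576 log2 differences of single members under the alternatives, 531 moved by less than the SD between probe sets, 45 moved by more, and no difference of at least 2-fold changed sign. Over all genes, cyclic loess normalization moved the median of mTAMs against BMDM to 0.02 from -0.11, with 1585 genes higher and 1199 lower in place of 1368 and 1715, while the members stayed at 13 higher and 2 lower. No paired analysis was possible because each group has 1 array, and for the same reason no array could be left out.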

Other observations

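Some members read differently on a probe set that was not chosen. The unshared probe set of *Col6a2* raised this gene past 2-fold, with log2 differences of 1.59 between mTAMs and BMDM and 1.31 between mTAMs and pTAMs, in place of 0.68 and 0.52. A weaker probe set of *Col5a1* gave 2.86 for mTAMs and 2.70 for pTAMs against BMDM, in place of 0.27 and 0.21. One probe set of *Col20a1* gave 1.04 for mTAMs and 1.01 for pTAMs against BMDM, with a BMDM value of 4.43, below background. Of the members never above background, *Loxl1* was the single one with another probe set above it, at 5.57 in mTAMs. Of the 55 members, 11 had the same value on all 3 arrays, and of these only *Col9a3* was above background.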
